A study of Arabidopsis thaliana with 53 samples.

Results

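MYB60, SCAP1 and MYB61 are 3 transcription factor genes of stomatal guard cells, and they make up 3 of the 27444 protein-coding genes on chromosomes 1 to 5 of Arabidopsis thaliana that could be examined. They were named by their locus identifiers, AT1G08810 (MYB60), AT5G65590 (SCAP1) and AT1G09540 (MYB61). A peak of open chromatin was assigned to a gene when its summit, the position of strongest signal, lay inside the gene or within 1500 bp of either end. Genes may share a summit, and the gene table used carries neither strand nor exons, so positions are given relative to the low-coordinate and the high-coordinate end of a gene.

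Guard cells are the paired epidermal cells that open and close the stomatal pore through ion uptake and release. The hormone abscisic acid (ABA) and high CO2 close the pore, whereas low CO2 opens it, and the ABF bZIP factors ABF1 to ABF4 carry part of the transcriptional response to ABA. MYB60 encodes an R2R3-MYB factor expressed in guard cells and involved in stomatal opening, and its transcript is known to decline with ABA and drought. SCAP1 encodes a Dof-type zinc finger factor needed for guard cell maturation. MYB61 encodes another R2R3-MYB factor, with known roles in closing the stomatal pore and in building xylem cell walls.

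Open chromatin was mapped by ATAC-seq, an assay that tags accessible DNA with adapters through the Tn5 transposase, on nuclei sorted by FACS from Col-0 plants carrying an EGFP-tagged histone H2B. The 53 samples formed 18 groups, of which 3 had 2 samples, 13 had 3 and 2 had 4. Wild-type (WT) guard cells were taken after vehicle (ethanol) for 4 h, after 50 µM ABA for 4 h or 24 h, and after 4 h in air with 100 ppm or 1000 ppm CO2. Guard cells of the abf1/2/3/4 quadruple mutant were taken after vehicle or ABA for 4 h. WT mesophyll and WT whole seedlings were taken after vehicle or ABA for 4 h. WT seedling roots were taken after vehicle for 4 h or ABA for 45 min, 2 h or 4 h, and abf1/2/3/4 roots after vehicle for 4 h or ABA for 45 min or 2 h. Rosettes of mature plants were sprayed, whereas seedlings were moved to plates with ABA or vehicle. For the abf1/2/3/4 root samples with ABA for 2 h, the titles state 2 h and the treatment time states 4 h. The CO2 groups come from a chamber experiment of their own, so the vehicle list is not their control. The promoter that drives the guard cell marker is not given in the sources used here. If it is the promoter of one of the genes described here, such as MYB60, reads from the transgene and from the native locus cannot be told apart in the guard cell lists.

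Each group is represented by 1 peak list, and 0 columns hold values for single samples. The depth of each sample is therefore unknown, the spread between replicates cannot be had, and no test was made. The lists held 15345 to 27514 peaks. Each peak carries a −log10 p and an area score, both the authors' own values, used here only to order peaks within a list. The place of a peak is its rank by −log10 p as a percentage of the list length, so that a place near 0 is among the strongest peaks of its list. Lists differ in length and in strength, so places from different lists are set side by side as descriptions and show no change by themselves. Of 8 guard cell marker genes, 7 had a peak in the guard cell control list (KAT1, KAT2, GORK, SLAC1, ALMT12, FAMA and TGG1, but not TGG2), as had 5 of 5 stomatal precursor markers, 3 of 4 mesophyll markers and 4 of 8 root markers. It also had 2 of 3 epidermis and 1 of 2 phloem markers. In the WT root control list 7 of 8 root markers had a peak, as had 4 of 4 mesophyll and 5 of 5 stomatal precursor markers. The mesophyll control list had 4 of 4 mesophyll and 4 of 8 root markers. Guard cell markers numbered 3 of 8 in the mesophyll and 4 of 8 in the WT root control list. Over all genes, 71.5% had a peak in the guard cell, 73.9% in the WT root and 57.1% in the mesophyll control list. The mesophyll and stomatal precursor markers thus hardly told these lists apart.

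MYB60 had a peak in 16 of the 18 lists, in 7 of 7 guard cell lists, 7 of 7 root lists, 2 of 2 seedling lists and 0 of 2 mesophyll lists. Presence alone is common, since 50.6% of all genes had a peak in 16 or more lists, and 2.83% had one in exactly the lists of MYB60. In the control lists, 71.5% of all genes had a peak in guard cells, 73.9% in WT root, 59.0% in seedling and 57.1% in mesophyll, and 17.8% had one in guard cells but not in mesophyll, as MYB60 did. What set the guard cell lists apart at MYB60 was the position of the peaks. The 30 peaks of the 16 lists had 6 summit positions, and 3 of these positions occurred in guard cell lists alone.

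The strongest of them, inside MYB60 and 92 bp from its high-coordinate end at the median, was a summit in 7 of 7 guard cell lists and in 0 of 11 others. Its summits lay between positions 2820384 and 2820408 of chromosome 1, a spread of 24 bp over the 7 lists. The peak spanned chr1:2820156-2821692 (TAIR10), 1537 bp, in the guard cell control list, where its −log10 p was 21.4 and it ranked 956 among 20954 peaks. Of all 20954 peaks of that list, 690 (3.29%) had a summit within 150 bp in all 7 guard cell lists and in none of the 11 others, and the MYB60 peak was number 23 among these by −log10 p. The part of a marker transgene in this peak was not tested. A best peak placed at or above that of MYB60 was found at 5.0% of all genes in this list. The peak reached beyond MYB60 across the 875 bp gap into the neighbouring gene VAP27-2, and its summit also lies within 1500 bp of VAP27-2.

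A second pair of guard cell positions lay close to the low-coordinate end, inside MYB60 at 71 bp (summit 2819136) or 264 to 273 bp (summits 2819329 to 2819338) from it. One or the other was present in 6 of 7 guard cell lists, all but the WT list with ABA for 4 h, and was a summit in 0 of 11 others. No share over all peaks is given for this pattern. These summits lie 1065 to 1267 bp from the neighbouring gene AT1G08800, and so inside the 1500 bp window of that gene too. With vehicle, in WT, this peak spanned chr1:2818308-2819516 with a −log10 p of 11.8 and a place of 36.1%. At 100 ppm CO2 it extended over chr1:2817417-2819664, 2248 bp, the widest of the MYB60 peaks, and ran into AT1G08800.

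**Figure D1:**
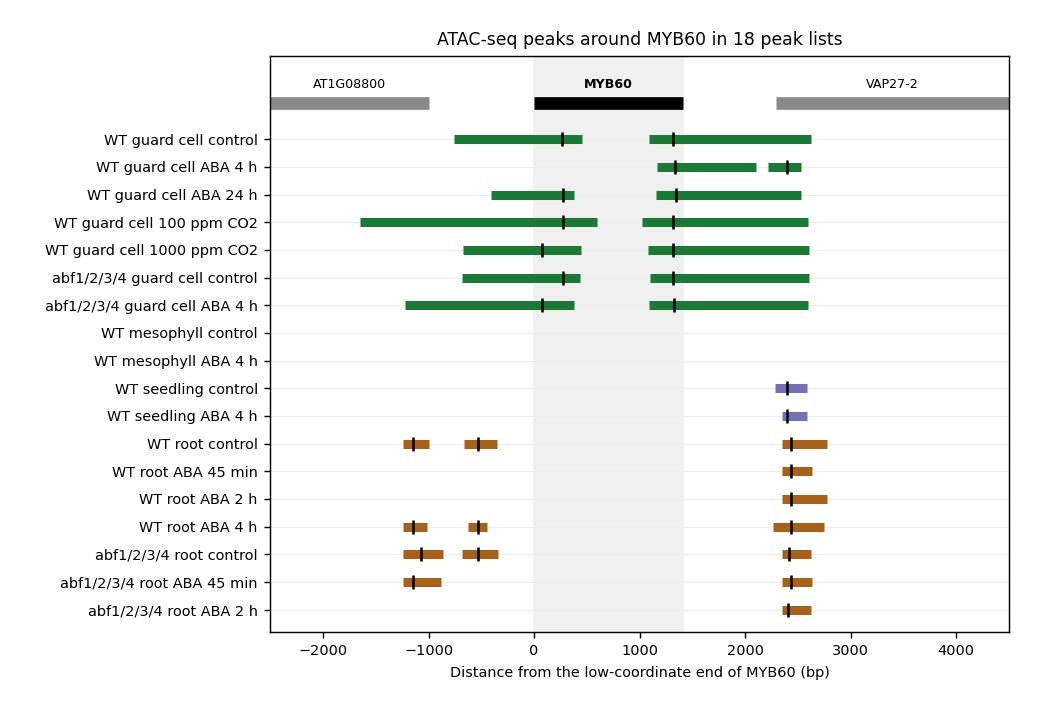
Peaks around MYB60 in each of the 18 lists, with distance from the low-coordinate end of the gene in bp on the x axis; bars are peaks, black ticks their summits, and genes are drawn on top (green guard cell, purple seedling, brown root lists). The 7 guard cell lists share a summit inside the gene near its high-coordinate end, which none of the 11 other lists has.

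Root and seedling lists held other peaks. A summit between 2821458 and 2821504, inside VAP27-2 and 1013 bp beyond the high-coordinate end of MYB60 at the median, occurred in 7 of 7 root lists, in 2 of 2 seedling lists and, of the guard cell lists, in WT with ABA for 4 h. In the WT root control list this peak spanned chr1:2821413-2821842 with a −log10 p of 10.8 and a place of 29.7%, and in the seedling control list chr1:2821347-2821654 with 5.06 and 66.9%. It is narrow, 241 to 486 bp, and in the 6 other guard cell lists its position lies under the wide peak described above. If peaks are matched by 1 bp of overlap in place of their summits, the guard cell peak of MYB60 thus meets a peak in 9 of 11 other lists, and it is then not among the 698 peaks of the guard cell control list (3.33%) found in all 7 guard cell lists and none of the 11 others. A position 1147 bp beyond the low-coordinate end, inside AT1G08800, was found in 4 root lists and one 532 bp beyond that end in 3, with places of 71.2% to 92.7% and 73.3% to 95.9%. The latter position lies under the low-coordinate guard cell peak in 5 of 7 guard cell lists and the former in 2.

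Across the guard cell treatments, the peak near the high-coordinate end of MYB60 was placed low in the WT lists with ABA and high in the other 5. In WT with vehicle its −log10 p was 21.4 and its place 4.56%. In WT with ABA for 4 h the peak covered chr1:2820232-2821173, 942 bp, with a −log10 p of 8.97 and a place of 33.5% (rank 5995 of 17891). In WT with ABA for 24 h it covered chr1:2820222-2821594, 1373 bp, with a −log10 p of 15.0 and a place of 19.4% (rank 3732 of 19239). The narrowest peak with the lowest −log10 p of the 7 lists was thus the one at 4 h, and the values at 24 h lay between it and vehicle.

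In abf1/2/3/4 guard cells the peak kept nearly the same span with and without ABA. The vehicle list gave chr1:2820163-2821669, 1507 bp, a −log10 p of 15.5 and a place of 5.91% (rank 1174 of 19864). With ABA for 4 h it was chr1:2820154-2821659, 1506 bp, with a −log10 p of 15.3 and a place of 4.53% (rank 842 of 18584). By area score the mutant's places were 1.80% and 2.58%, the opposite order, against 1.89% and 24.9% in WT. With ABA, the WT and mutant lists were of similar length and strength, 17891 and 18584 peaks with median −log10 p of 7.23 and 7.49. The vehicle lists differed more, with 20954 peaks and a median of 9.68 in WT, and 19864 and 7.92 in the mutant. Among genes with a peak in both lists, 69.2% had a lower-placed best peak with ABA for 4 h in WT, and 53.6% in the mutant. The part of these list properties in the MYB60 result was not tested.

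To read these places against the rest of the genome, all peaks placed at or above that of MYB60 in a first list were followed into a second. By this rule the MYB60 peak was the lowest-placed of each set, and every other peak in it was placed higher. Peaks placed just below it were not followed, so the shares do not describe peaks of like place. Of the 956 such peaks of the WT vehicle list, 10 (1.05%) had a place of 33.5% or beyond in the WT list with ABA for 4 h, MYB60 included, and the median place there was 3.77%. At 24 h, 37 (3.87%) were placed as low as the MYB60 peak. In abf1/2/3/4, 465 of 1174 (39.6%) were placed as low with ABA as the MYB60 peak. Of the 842 peaks placed at or above it in the mutant's ABA list, MYB60 alone (1, or 0.119%) had a place of 33.5% or beyond in the WT list with ABA. Between the vehicle lists of WT and mutant, 80 of 956 (8.37%) were placed as low as MYB60 in the mutant.

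**Figure D2:**
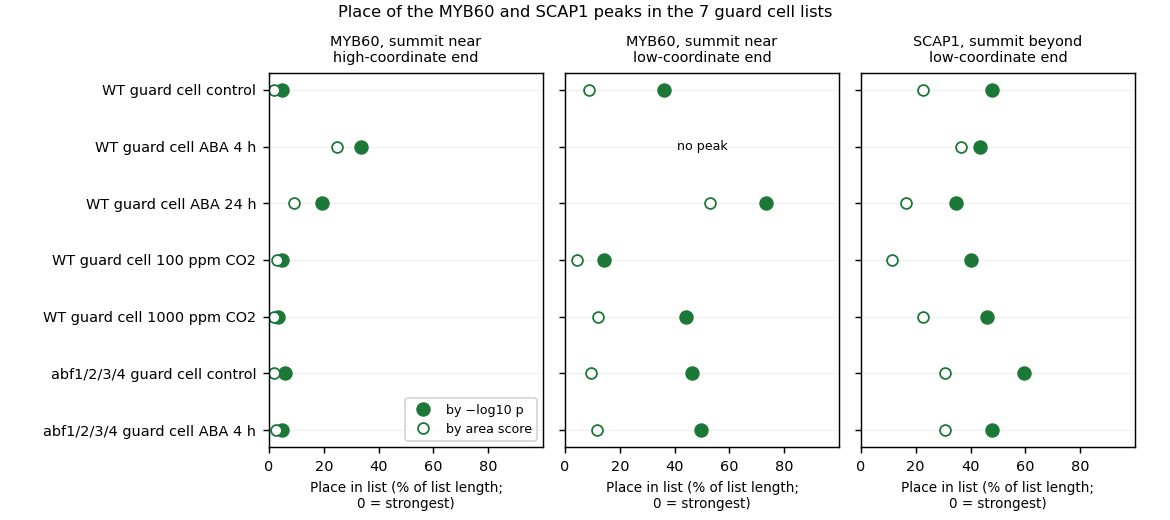
Place of the MYB60 and SCAP1 peaks in the 7 guard cell lists, as percent of the list length with 0 for the strongest peak, by −log10 p (filled) and by area score (open). The MYB60 peak near the high-coordinate end lies at 33.5% and 19.4% by −log10 p in the WT lists with ABA and between 3.18% and 5.91% in the other 5 lists.

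The peak at the low-coordinate end of MYB60 had its lowest values in the same lists. Its −log10 p was 11.8 in WT with vehicle, no peak was listed in WT with ABA for 4 h, and it was 6.55 with a place of 73.4% in WT with ABA for 24 h. In abf1/2/3/4 it was 8.31 with vehicle, at 46.3%, and 7.54 with ABA, at 49.5%. Counted as a peak of the control list that shares no base with the treated list, this is the only loss at MYB60 in guard cells, and 20.7% of genes had such a lost peak between the same 2 lists. MYB60 gained no peak in any of the 10 comparisons of ABA with control, some of which share a control, whereas 44.1% of genes gained one in at least 1. It had a lost peak in 5 of them, and 6.74% of genes had one in 5 or more. The other losses were the narrow low-side root peaks, 2 in WT at 45 min, 2 in WT at 2 h, 1 in the mutant at 45 min and 2 in the mutant at 2 h, where 30.0%, 9.58%, 9.19% and 13.2% of genes had a lost peak. All of these low-side root peaks had a −log10 p of 6.03 or less. Against WT under the same treatment, the mutant had 1 additional peak at MYB60 in guard cells with ABA for 4 h, the low-coordinate one, and 1 in roots with ABA for 45 min, where 10.6% and 5.45% of genes had one.

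At 100 ppm and 1000 ppm CO2 the MYB60 peaks were listed at both ends of the gene, and none was gained or lost between the 2 lists. A peak listed at 100 ppm but not at 1000 ppm was found at 8.42% of all genes, and the reverse at 6.99%. The peak near the high-coordinate end had a −log10 p of 21.8 and a place of 4.70% at 100 ppm, and 19.8 and 3.18% at 1000 ppm. Of the 893 peaks placed at or above it at 100 ppm, 356 (39.9%) were placed as low as it at 1000 ppm. The low-coordinate peak had a −log10 p of 17.2 and a place of 14.3% at 100 ppm, and 9.35 and 44.3% at 1000 ppm. By area score its places lay closer, 4.33% and 12.2%. Its summit was at 2819337 at 100 ppm and at 2819136 at 1000 ppm. No share of peaks placed as low is given for it.

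SCAP1 had a peak in 8 of the 18 lists, 7 of 7 guard cell lists and 1 root list, that of WT with ABA for 4 h. A peak in all 7 guard cell lists was found at 59.8% of genes, but a peak in all 7 and in at most 1 of the 11 others at 1.46%, and one in exactly the lists of SCAP1 at 0.412%. Among the 4 control lists SCAP1 had a peak in guard cells alone, as 4.77% of genes had. The 13 peaks had 4 summit positions. The main one was summit 26211631 or 26211632 of chromosome 5, which lies 115 bp beyond the low-coordinate end, in 6 guard cell lists and the root list. At 100 ppm CO2 the guard cell peak over this position had its summit at 26211101, 645 bp beyond that end.

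The SCAP1 peak lay near the middle of its lists. With vehicle, in WT guard cells, it spanned chr5:26210801-26211855, 1055 bp, with a −log10 p of 9.99 and a place of 47.8%, and 44.1% of all genes had a best peak placed at or above it. With ABA for 4 h the WT list gave 7.84 and 43.4%, and with ABA for 24 h 11.7 and 34.6%. By area score these 3 places were 22.7%, 36.6% and 16.6%, so at 4 h the order against vehicle turned with the ranking used. In abf1/2/3/4 it had a −log10 p of 7.07 at 59.5% with vehicle and 7.70 at 47.7% with ABA. At 100 ppm CO2 it had 11.2 at 40.3%, and at 1000 ppm 9.12 at 46.2%. The places of SCAP1 thus spanned 34.6% to 59.5% in the 7 lists, and in WT those with ABA (43.4% and 34.6%) overlapped those without (40.3% to 47.8%). SCAP1 had 1 peak lost in WT guard cells at both 4 h and 24 h and in the mutant vehicle list against WT, and each time it was the same narrow peak, chr5:26210483-26210671, which had a −log10 p of 4.21 and a place of 98.0%. Lost peaks were found at 15.3% of genes at 24 h and at 10.5% in the mutant.

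Beyond the high-coordinate end of SCAP1, outside the 1500 bp window, a summit 2388 to 2393 bp from the gene was present in all 18 lists. It lies in the 2757 bp gap between SCAP1 and AT5G65600, inside the 1500 bp window of AT5G65600, which had a peak in 18 of 18 lists. Its peak was 2321 to 3097 bp wide in the 7 guard cell lists, with a median of 3012 bp, and 253 to 857 bp wide in the 11 others, with a median of 682 bp. Counted from the low-coordinate end of SCAP1, AT5G65600 begins at 4245 bp. The peak ended at 4203 bp in WT guard cells with vehicle, at 4293 bp with ABA for 4 h, and at 4497 bp in the WT root control list. With vehicle, in WT guard cells, it covered chr5:26212938-26215949 and ran into SCAP1, as it did in 4 of 7 guard cell lists and in 0 of 11 others. At most 0.581% of the peaks of a guard cell list were as wide, against 12.1% to 75.1% of the peaks of the other lists. In the other 3 guard cell lists, WT with ABA for 4 h and the mutant with vehicle and with ABA, this peak began 254 to 290 bp outside the gene. There a separate peak was listed with a summit inside SCAP1, between 26213174 and 26213182, with −log10 p of 5.28, 8.41 and 6.40.

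The width of this peak relative to other tissues was uncommon among summits shared within 20 bp with the guard cell control list. It was 11.9 times as wide as in the mesophyll control list, and 7 of 7640 shared summits (0.0916%) had a ratio as large, the median being 1.19. Against the seedling control list the ratio was 5.02, reached by 111 of 8745 (1.27%), and against the root control list 3.62, reached by 288 of 9189 (3.13%). On the other side of the gene, a peak 2636 to 2721 bp beyond the low-coordinate end was listed in 7 of 7 guard cell lists, with −log10 p of 7.99 to 17.2. Its summit lies 1063 to 1148 bp from the neighbouring gene AT5G65580, inside the 1500 bp window of that gene and outside that of SCAP1. This peak was picked out after the locus had been viewed. Its span in the WT vehicle list was chr5:26208478-26209466 and its place 16.5%, above that of the peaks inside the SCAP1 window. In WT with ABA for 4 h its place was 42.0%, with ABA for 24 h 22.6%, and in abf1/2/3/4 18.3% with vehicle and 33.3% with ABA.

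**Figure D3:**
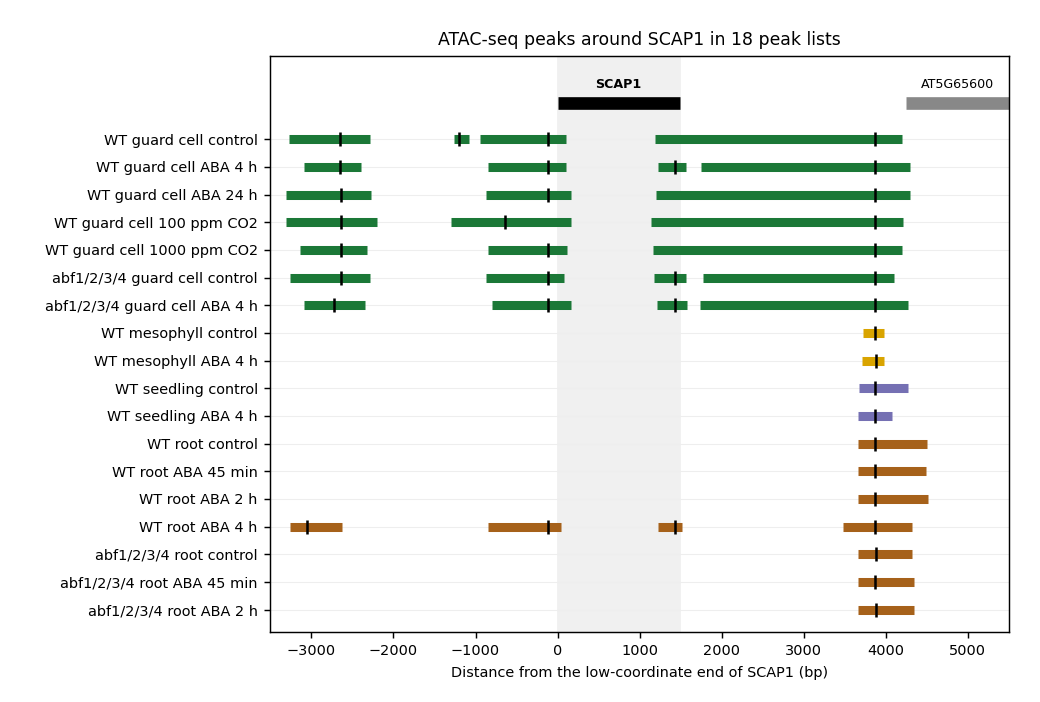
Peaks around SCAP1 in each of the 18 lists, with distance from the low-coordinate end of the gene in bp on the x axis; bars are peaks, black ticks summits, genes on top (green guard cell, yellow mesophyll, purple seedling, brown root lists). The summit 2388 to 2393 bp beyond the high-coordinate end is in all 18 lists, but its peak is 2321 to 3097 bp wide in the guard cell lists and 253 to 857 bp in the others.

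The WT root list with ABA for 4 h was the single list outside guard cells with peaks at SCAP1. It had chr5:26210895-26211789 with a −log10 p of 5.88 and a place of 78.6%, and chr5:26212976-26213268 with 5.75 and 80.0%, while the root control list had neither. A gained peak between these root lists was found at 17.0% of genes, and a lost one at 17.8%. The same list also held chr5:26208479-26209120, at 55.1%, which overlaps the distal guard cell peak but has its summit elsewhere, 3048 bp beyond the low-coordinate end. The summit near the low-coordinate end of SCAP1 was at the same base, 26211631, as in guard cells. SCAP1 was not alone in this: of the 181 genes with a peak in all 7 guard cell lists and exactly 1 other list, that other list was WT root with ABA for 4 h at 113 (62.4%), WT root with ABA for 2 h at 38 (21.0%), and each of the remaining 9 lists at no more than 9. Of the 8 guard cell markers, 5 had a peak in the WT root list with ABA for 4 h and 4 in the WT root control list, the additional one being KAT2, at 75.8%, while SLAC1, TGG1 and TGG2 had none in either. Of the 4 mesophyll markers, 3 had a peak there and 4 in the root control. Whether other cells in the sorted nuclei had a part in this was not tested.

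MYB61 had no peak in any of the 18 lists, as had 3761 of 27444 genes (13.7%). Its surroundings were empty over a longer distance than at most genes: the nearest summit of any list lay 4721 bp beyond the low-coordinate end, and 4.53% of genes had no summit nearer than that. On that side the nearest summits lay 4721 to 4743 bp away in the 7 root lists, and 6491 to 6504 bp away, inside the neighbour PIF3, in the 7 guard cell lists. On the other side, the nearest summits lay 5384 to 5580 bp away in all 18 lists, beyond the neighbour AT1G09550. The places of these high-side peaks were 4.87% to 7.90% in root lists, 15.7% to 21.3% in guard cell lists and 39.6% to 43.4% in mesophyll lists. With no peak to compare, no statement can be made on MYB61 under ABA, CO2 or in the mutant. A gene without a listed peak can still be transcribed, and a peak under the threshold of the lists would not appear.

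**Figure D4:**
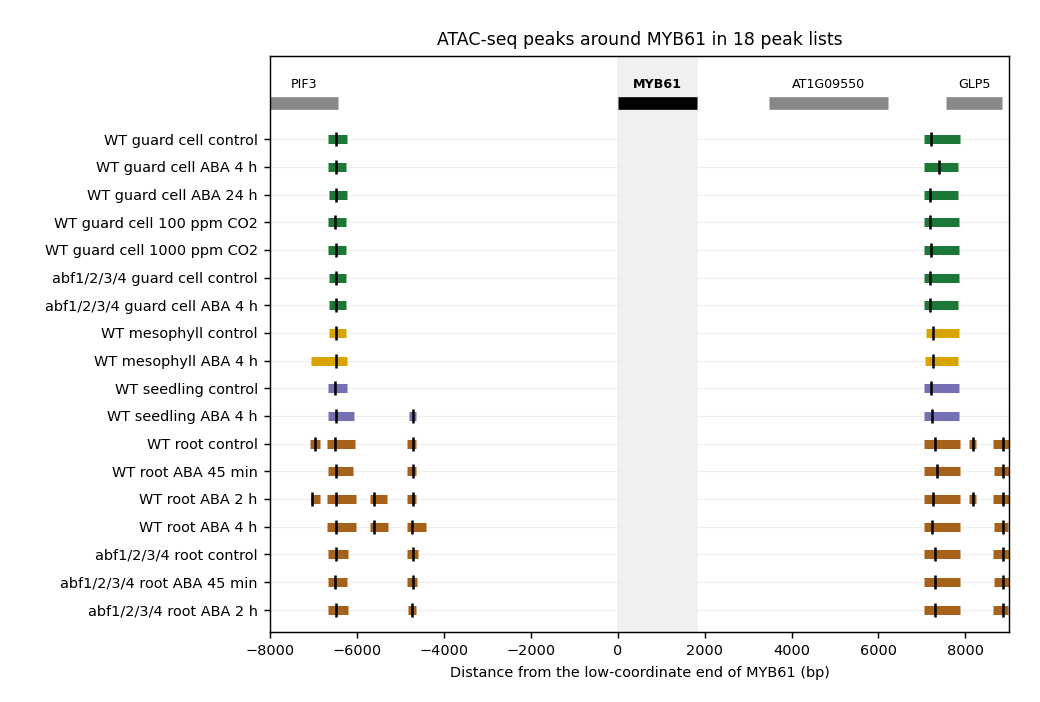
Peaks around MYB61 in each of the 18 lists, with distance from the low-coordinate end of the gene in bp on the x axis; bars are peaks, black ticks summits, genes on top (green guard cell, yellow mesophyll, purple seedling, brown root lists). No list has a summit nearer than 4721 bp before or 5384 bp beyond the gene.

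Other guard cell genes were read in the same way, from lists that were put together with earlier results of these data known. Of 25 genes of guard cell ion transport, signalling, identity and cell wall, 22 had a peak in the guard cell control list, with TGG2, FLP and ABCG40 as exceptions, against 71.5% of all genes. In guard cells alone among the 4 controls, 7 of them had one, as SCAP1 and 4.77% of all genes did and MYB60 did not. These were the potassium channel gene KAT2, the anion channel genes SLAC1 and ALMT6, the kinase genes HT1 and BLUS1, the myrosinase gene TGG1 and AT1G23200. In WT guard cells with ABA for 4 h, 7 of 16 transport and signalling genes had a lost peak (KAT1, KAT2, GORK, AT3G01490, BLUS1, AHA1 and AHA5) and 2 of 9 identity and wall genes (MYB88 and TGG1), and 1 of the 25, AT3G01490, a gained one, where 20.7% and 6.79% of all genes did. The mesophyll marker CA1 also had 1 gained and 1 lost peak, and the same places as AT3G01490 in all 11 lists outside guard cells. The peaks of AT3G01490 may thus be shared with CA1.

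The low place of the MYB60 peak with ABA was also seen at part of these genes. The best peak of TGG1 was at 2.39% in WT with vehicle, 26.3% with ABA for 4 h and 9.37% for 24 h, and in abf1/2/3/4 at 2.63% with vehicle and 4.79% with ABA. HT1, a kinase of CO2 signalling, was at 10.6% with vehicle, 60.4% at 4 h and 44.8% at 24 h in WT, and at 12.1% and 45.2% in the mutant. BLUS1, a kinase of blue light signalling, was at 6.74%, 36.5% and 20.9% in WT, and at 7.01% and 25.0% in the mutant. AT1G23200 had the opposite order, 10.5% with vehicle and 2.79% with ABA for 4 h. Among genes with a peak in both lists, 10 of 15 transport and signalling genes and 4 of 7 identity and wall genes had a lower-placed best peak in WT with ABA for 4 h, against 69.2% of all genes, with median differences of 6.81 and 2.92 percentage points against 4.86. In the mutant it was 14 of 16 and 4 of 7, against 53.6% of all genes.

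Of the 7 R2R3-MYB genes read beside MYB60 and MYB61, 5 had a peak in the guard cell control list (MYB30, MYB31, MYB94, MYB96 and MYB55), against 71.5% of all genes. Only MYB94, a regulator of cuticular wax synthesis, was limited to guard cells among the controls, as were 4.77% of all genes. With ABA it also had peaks in WT seedling (87.4%) and in WT root at 2 h (86.1%) and 4 h (76.9%). In WT guard cells with ABA for 4 h, MYB94 gained 2 peaks and MYB55 lost one. Over all genes, 6.79% had a gained and 20.7% a lost peak there. MYB86, a close relative of MYB61, had no peak in any list, and MYB50 had one in 3 non-guard-cell lists.

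**Figure D5:**
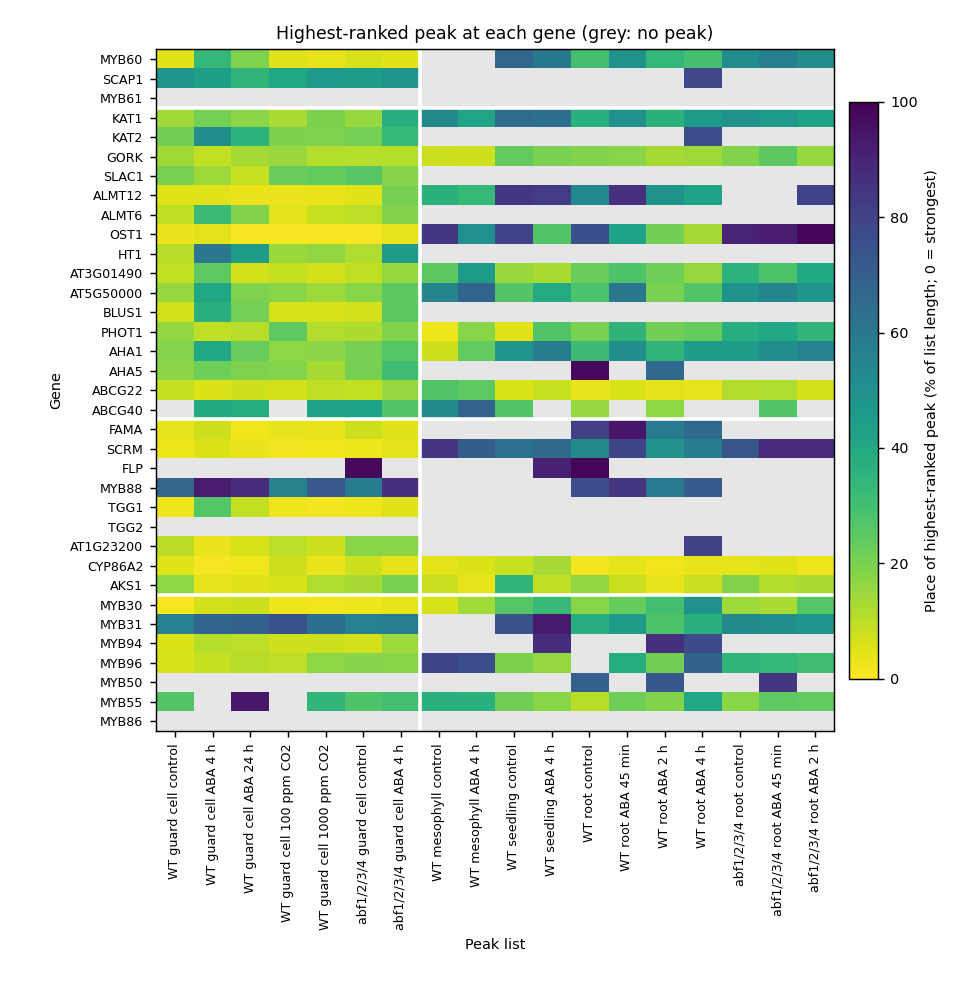
Place of the best peak of each gene in each of the 18 lists, as percent of list length (yellow strongest, dark weakest, grey no peak); genes are MYB60, SCAP1 and MYB61, 16 guard cell transport and signalling genes, 9 identity and wall genes and 7 R2R3-MYB relatives. MYB60 is placed at 3.18% to 5.91% in the guard cell lists other than the WT lists with ABA, SCAP1 at 34.6% to 47.8% in all 7, and MYB61 is grey throughout.

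The genes with the most similar pattern over the 18 lists were ranked by the mean absolute difference in place, with an absent peak set to 100%. Genes that share the best peak of a member were left out, 1 for MYB60 and 0 for SCAP1. The neighbour VAP27-2, whose window holds the main guard cell summit of MYB60, had a peak in 16 lists. For MYB60 the nearest of the genes compared were AT3G62820 at 5.53 percentage points, AT1G08165 at 5.77, AT1G26590 and CLE9, which share a peak, at 6.37, and AT1G12030 at 6.65, where the median over all genes was 37.1. None matched the place of MYB60 in WT with ABA for 4 h: they were placed at 4.37% to 19.6%. For SCAP1 they were AT3G26800 at 2.66, AT2G14835 at 2.86, CYP76C7 at 3.02, AT5G59360 at 3.10 and ZR3 at 3.61, where the median was 31.1. Lists that share a control or a tissue are not independent points in this measure. MYB61 tied with the 3760 other genes without a peak.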

How the data were processed

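The 18 deposited peak lists, 1 per group, were used as they stand. Per the submitters' processing notes the genome build was TAIR10, and Trim Galore 0.6.5 and bedtools 2.30 were among the tools. The peak caller's settings and how replicates were combined are not given in the sources used here. The −log10 p of each peak and its area score are the authors' deposited values. The p is uncorrected, since the q column was −1 in every line, and the smallest area score was just over 200. The summit offset was also deposited by the authors.

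Peaks were ranked within a list by −log10 p, ties by area score, with pandas 2.3.3 and numpy 2.4.6 under Python 3.11.15. Gene positions and names came from a RefSeq table of assembly TAIR10.1. As a check of the build, the share of guard cell control summits no more than 150 bp from a gene end was 51.1%, and 14.0% or 14.3% when summits were moved 5 kb down or up. A lost or gained peak shares no base with the other list. Summits of a gene within 150 bp in sorted order formed 1 position. Shares over all 27444 genes or all peaks of a list stand beside most counts. None is given for the low-coordinate, root and seedling positions of MYB60, the distal SCAP1 peak, or the reach of the wide peak into SCAP1. The assignment of peaks to genes was tested on simulated data. Alternatives were windows of 500 and 3000 bp, peaks of −log10 p of at least 10, lists cut to 15345 peaks, overlap in place of summits, 50% overlap, ranking by area score and a presence distance for similar genes. The planned motif counts were not run, as no promoter sequence was used here.

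The genes named are the 3 members, the 5 most similar genes of each, listed guard cell genes with a peak in the guard cell control alone or a peak gained or lost with ABA for 4 h, and neighbours. Outside this rule, markers (ALMT12, FAMA, CA1), exceptions to a count (TGG2, FLP, ABCG40) and the other R2R3-MYB genes are named, chosen after their values were seen. The members and gene lists were chosen with earlier results of these data known.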

Additional observations from a re-analysis of the deposited data

Results flagged for a closer look

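The place of the MYB60 peak near the high-coordinate end differed between genotypes in how it went with ABA for 4 h: it was 28.9 percentage points lower in the list with ABA than with vehicle in WT guard cells, and −1.38 points, that is slightly higher, in abf1/2/3/4 guard cells. By area score both genotypes had the lower place with ABA, 24.9% against 1.89% in WT and 2.58% against 1.80% in the mutant. With 1 list per group this difference was not tested.

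SCAP1 had a net 2 peaks more in WT roots with ABA for 4 h than with vehicle, and a net −1 in WT guard cells, where the peak lost was placed at 98.0% of its list. This difference was not tested either, and with lists of equal length neither the gain nor the loss was present.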

How the results depend on the processing

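In all, 207 values of 51 results were recomputed, of which 143 stayed within the limits set and 64 moved. Counts and places have no sign to reverse, but by area score the order of the lists with ABA for 4 h and with vehicle turned for SCAP1 in WT (22.7% with vehicle, 36.6% with ABA) and for MYB60 in the mutant (1.80% and 2.58%). MYB60 had a peak in 7 lists with a 500 bp window and in 9 at −log10 p of at least 10, in place of 16, and in 1 of 4 control lists with 500 bp in place of 3. Its comparisons of ABA with control with a lost peak numbered 1 with 500 bp, 3 at −log10 p of at least 10 and 3 with lists of equal length, in place of 5, and 1 had a gained peak with lists of equal length. Its mutant comparisons with a gained peak numbered 1 with 500 bp and 1 at −log10 p of at least 10, where 3 had a lost one. SCAP1 had a peak in 18 lists, 4 of them controls, with 3000 bp, and in 2, both guard cell lists and 0 of them controls, at −log10 p of at least 10. Its losses with ABA and in the mutant numbered 0 with 500 bp, at −log10 p of at least 10 and with lists of equal length, and the root gain 0 with lists of equal length. At −log10 p of at least 10 the root peaks, at 5.88 and 5.75, also drop out, and the 1 gained comparison left is WT guard cells with ABA for 24 h, at 11.7 against 9.99 with vehicle. At −log10 p of at least 10 the 100 ppm CO2 list had 1 gained peak at MYB60 and 1 at SCAP1. Of the 25 guard cell genes, 4 were limited to the guard cell control with 3000 bp and 13 at −log10 p of at least 10, in place of 7. With the presence distance 0 of the 5 SCAP1-like genes were kept. Matched by overlap, an alternative chosen after seeing the data, the MYB60 guard cell peak was shared by 9 other lists, not 0. With lists of equal length, likewise added, its places were 6.23% in WT with vehicle, 39.1% and 24.3% with ABA for 4 h and 24 h, and 5.49% in the mutant with ABA. The WT peak with ABA for 4 h, at 8.97, is not in a list limited to −log10 p of at least 10. For the rest the cause was not tested.

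No paired analysis was possible because each group has 1 peak list and no column holds a single sample, and for the same reason no replicate was left out. Depth per sample is unknown, and it limits which weak peaks the lists hold.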
